A study of Rattus norvegicus with 20 samples.

Results

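The enzymes of cholesterol synthesis were followed through 4 groups of rat progenitor cultures on an Affymetrix rat expression array. The 9 genes chosen encode Acat2, Hmgcs1, Idi1, Fdps, Fdft1, Sqle, Cyp51, Msmo1 and Dhcr7, and every probe set annotated to one of these symbols was taken. This gave 21 of the 8740 probe sets tested and covered 8 of the 9 genes. Hmgcs1 was not analysed here, because its symbol stood on no probe set of the annotation used. FBS cultures (6 arrays, 4 cultures) had received FBS, and their labels give astrocytes as the aim of that treatment. RA/Fsk cultures (4 arrays, 4 cultures) had received RA/Fsk, with neurons as the stated aim. Both started from progenitors at low density in CCg. LD cultures (4 arrays, 3 cultures) were such low-density CCg progenitors with no further treatment, and HD cultures (6 arrays, 3 cultures) were progenitors at high density. The usual readings are fetal bovine serum for FBS, retinoic acid for RA and forskolin for Fsk, while CCg is left unexplained. The labels give no strain, age, dose or duration. CCg is named for LD and not for HD, and the effects of density and of CCg cannot be told apart between them.

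Cholesterol is built from acetyl-CoA. Acat2, the cytosolic acetoacetyl-CoA thiolase, and Hmgcs1 supply the carbon skeleton of mevalonate, which is turned into activated isoprene units that Idi1 isomerises and Fdps joins into farnesyl diphosphate. Fdft1 (squalene synthase) commits farnesyl diphosphate to sterols, Sqle (squalene epoxidase) oxidises squalene, and Cyp51, Msmo1 and Dhcr7 remove methyl groups and set the last double bonds. In mammalian cells these genes share a regulator, SREBP2, a membrane-bound transcription factor that is cleaved and sent to the nucleus when sterols in the endoplasmic reticulum run low. NF-Y, which binds CCAAT boxes, and Sp1, which binds GC boxes, are known partners of SREBP at many of its promoters. The brain makes its own cholesterol, and dividing cells and myelinating glia are among the cells with a high demand.

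Promoters from RefSeq (rat assembly GRCr8, 250 bases before to 50 after the start of a gene) were found for 7 of the 9 genes, Acat2, Hmgcs1, Idi1, Fdps, Cyp51, Msmo1 and Dhcr7, and not for Fdft1 and Sqle. They were searched on both strands for CCAAT, which reads ATTGG on the other strand, for GGGCGG, and for TCACNCCAC, a form of the sterol regulatory element. 2 or more CCAAT matches were present in 4 of the 7 promoters, those of Hmgcs1, Idi1, Fdps and Msmo1, while 11.2% of all 33469 promoters hold 2 or more and 37.5% hold 1 or more. GGGCGG was present in 6 of the 7, all but Idi1, against 33.1% of all promoters. TCACNCCAC was present in 0 of the 7, against 1.12% of all promoters. Such matches describe letters in the window and not bound sites. The 200 bases before the start of 3 of these genes are shown because these are the enzymes of the set whose levels were measured here and whose promoters hold several CCAAT boxes, with CCAAT or ATTGG in capitals, 5′ to 3′ on the strand of the gene. The Idi1 stretch is chr17:66547525-66547724 on the minus strand, the Fdps stretch is chr2:176804817-176805016 on the minus strand, and the Msmo1 stretch is chr16:29746913-29747112 on the plus strand.
Idi1: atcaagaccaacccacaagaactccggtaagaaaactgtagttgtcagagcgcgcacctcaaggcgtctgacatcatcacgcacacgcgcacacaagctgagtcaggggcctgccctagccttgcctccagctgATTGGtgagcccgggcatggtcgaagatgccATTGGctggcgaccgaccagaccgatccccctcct
Fdps: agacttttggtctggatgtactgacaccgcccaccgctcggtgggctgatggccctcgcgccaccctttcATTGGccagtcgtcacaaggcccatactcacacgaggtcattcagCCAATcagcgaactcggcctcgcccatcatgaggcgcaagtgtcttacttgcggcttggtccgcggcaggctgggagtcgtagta
Msmo1: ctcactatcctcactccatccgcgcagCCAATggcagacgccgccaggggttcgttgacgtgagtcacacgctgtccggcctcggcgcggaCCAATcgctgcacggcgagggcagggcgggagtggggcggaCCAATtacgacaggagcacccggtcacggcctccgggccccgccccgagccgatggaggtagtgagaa
The boxes begin 66 and 35 bases before the start of Idi1, 130 and 85 bases before that of Fdps, and 173, 109 and 68 bases before that of Msmo1.

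The deposited values are linear intensities in arbitrary units, 1 per probe set and array. Repeat arrays, which share a group and a number, were averaged as log2 values, and each number within a group is called a culture here, 14 in all. Whether these numbers mark cells grown separately is not stated, and the spread behind the p-values may thus be technical. Several genes have more than 1 probe set, and the one with the highest mean is called the lead probe set. Probe sets of a gene are numbered from the brightest, and levels were not compared between probe sets. Sums over lists add the intensities of lead probe sets, so the brightest ones weigh most in them. Pairs that share a target sequence are the 2 of Acat2, the 2 of Dhcr7, the 2 brightest of Fdps, and Fdft1 probe sets 1 and 2 as well as 3 and 4. The second Idi1 probe set was dim, between 1.2 and 34.1 in all cultures, and limits little about that gene. Differences are log2(intensity + 4.99) of the group named first minus that of the group named second, from limma over all 8740 probe sets. The threshold was an adjusted p under 0.05 (Benjamini-Hochberg, over all 8740), and a probe set below it is said to have passed.

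One culture stood apart for these enzymes. RA/Fsk culture 3 lay above each of the other 3 RA/Fsk cultures in 19 of 21 probe sets, all but Cyp51 probe sets 3 and 4, and by a median of 1.0 log2 over the 21. Over all probe sets it lay above the other 3 in 20.2%, with a median of -0.12 log2. Its correlation with the other RA/Fsk cultures over all probe sets was 0.940 to 0.955, and RA/Fsk culture 1 reached 0.940 to 0.955 as well. RA/Fsk culture 1 was the lowest of its group in 15 of 21, with a median of -0.70 log2 from the rest, against 19.3% and a median of 0.15 log2 over all probe sets. HD culture 4 was the lowest of the 3 HD cultures in 17 of 21, with a median of -0.29 log2, against 41.4% and -0.07 log2 over all probe sets. The main RA/Fsk results on the enzymes are given with and without RA/Fsk culture 3. Because culture 3 stands apart in these same probe sets, p-values without it are a description and not an independent test. Repeat arrays of 1 culture correlated at 0.951 to 0.975, and the lowest value belongs to arrays 3 and 3r of FBS, whose intensities for the 21 probe sets differed by a median of 0.54 log2, against 0.10 to 0.22 for the other pairs.

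By lead probe sets, FBS cultures had the lowest mean levels of all 8 enzymes, for Msmo1 only with RA/Fsk culture 3 included. Without that culture, RA/Fsk minus FBS was -0.05 ± 0.16 log2 for the lead Msmo1 probe set and -0.35 ± 0.17 for the second. Against LD, 20 of 21 probe sets fell and 0 rose, and the lead probe sets of all 8 genes fell, to between 14.2% (Idi1) and 41.2% (Dhcr7) of LD. The exception was the dim second probe set of Idi1 (-0.97 ± 0.48 log2, SE, adjusted p = 0.168). Of all 8740 probe sets, 12.3% fell and 13.2% rose in this comparison. The median difference was -1.62 log2 over the 21 probe sets, -2.23 over the 8 lead probe sets and -0.09 over all probe sets. FBS and LD cultures did not overlap in the same 20 probe sets, whereas 18.5% of all probe sets were lower in FBS without overlap. These are whole cultures, in which fewer cells of a type and less RNA per cell cannot be told apart.

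**Figure D1:**
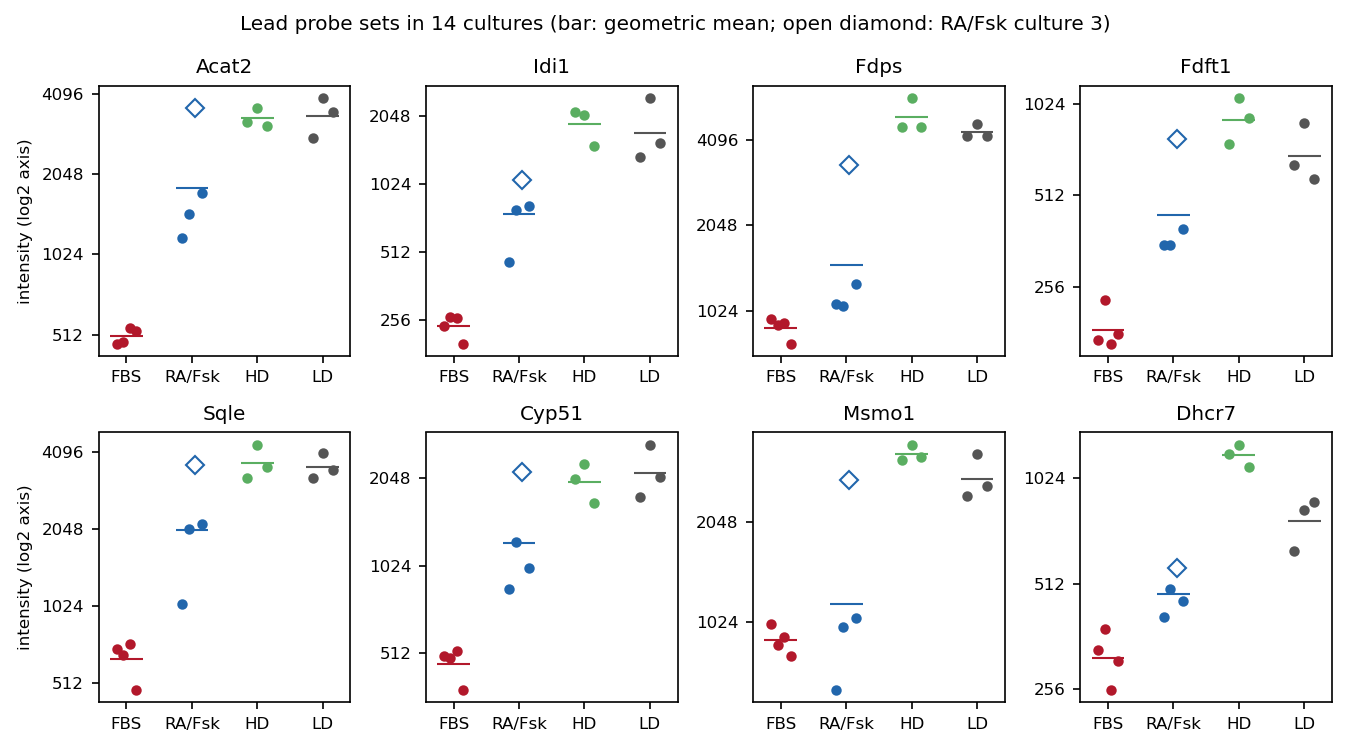
Intensity of the lead probe set of 8 enzymes (log2 axis, arbitrary units) in FBS, RA/Fsk, HD and LD cultures. Each point is 1 culture, the bar is the geometric mean of a group, and the open diamond is RA/Fsk culture 3. FBS cultures lie below all LD cultures in each panel, and the open diamond lies above the other RA/Fsk points.

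Idi1 and Acat2, which act early in the pathway, fell by the most. Acat2, which condenses acetyl-CoA, had intensities of 473.2, 479.5, 540.2 and 526.7 in FBS cultures 1 to 4. It had 1177.3, 1449.4, 3636.6 and 1742.8 in RA/Fsk cultures 1 to 4. It had 3221.0, 3643.6 and 3117.1 in HD cultures 1, 2 and 4, and 2811.4, 3948.4 and 3510.2 in LD cultures 1, 3 and 4. FBS lay far below the progenitors, RA/Fsk cultures 1, 2 and 4 lay in between, and RA/Fsk culture 3 lay among the progenitors. Acat2 fell by 2.74 ± 0.26 log2 in FBS against LD (SE, adjusted p = 9.03e-07), and its second probe set fell by 2.84 ± 0.27.

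Idi1, the isomerase of isopentenyl diphosphate, had 241.8, 263.5, 261.0 and 201.4 in FBS cultures 1 to 4. It had 464.5, 782.3, 1061.0 and 820.7 in RA/Fsk cultures 1 to 4. It had 2137.5, 2074.1 and 1504.9 in HD cultures 1, 2 and 4, and 1350.4, 2447.0 and 1550.4 in LD cultures 1, 3 and 4. Neither treated group overlapped with HD or LD, and for this gene even RA/Fsk culture 3 lay below every progenitor culture. Idi1 fell by 2.82 ± 0.24 log2 in FBS against LD (adjusted p = 2.64e-07). RefSeq places Wdr37 over the same stretch of the genome.

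Fdps, the farnesyl diphosphate synthase, had 953.5, 913.3, 924.5 and 782.0 in FBS cultures 1 to 4, and 1078.9, 1063.6, 3338.4 and 1265.7 in RA/Fsk cultures 1 to 4. It had 4562.2, 5763.8 and 4560.2 in HD cultures 1, 2 and 4, and 4249.2, 4692.6 and 4225.0 in LD cultures 1, 3 and 4. The 3 RA/Fsk cultures other than culture 3 lay just above the FBS cultures. Fdps fell by 2.29 ± 0.28 log2 in FBS against LD (adjusted p = 1.16e-05), and the other 2 probe sets fell by 1.83 ± 0.20 and 2.33 ± 0.30.

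Fdft1, the squalene synthase, had 170.6, 230.4, 166.1 and 178.5 in FBS cultures 1 to 4. It had 349.5, 349.5, 783.3 and 396.9 in RA/Fsk cultures 1 to 4. It had 754.3, 1066.8 and 921.7 in HD cultures 1, 2 and 4, and 643.5, 882.6 and 579.4 in LD cultures 1, 3 and 4. Culture 3 was the only RA/Fsk culture within the range of LD. Fdft1 fell by 1.87 ± 0.24 log2 in FBS against LD (adjusted p = 2.01e-05), and its other 3 probe sets fell by 1.5 to 1.58 log2.

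Sqle, which adds the epoxide to squalene, has 1 probe set. It had 700.8, 663.4, 727.2 and 481.8 in FBS cultures 1 to 4, and 1044.6, 2064.1, 3662.1 and 2155.7 in RA/Fsk cultures 1 to 4. It had 3245.7, 4389.4 and 3583.3 in HD cultures 1, 2 and 4, and 3247.5, 4060.8 and 3485.5 in LD cultures 1, 3 and 4. RA/Fsk culture 1 came closest to the FBS cultures, and culture 3 again lay among the progenitors. Sqle fell by 2.49 ± 0.28 log2 in FBS against LD (adjusted p = 5.29e-06).

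Cyp51, the lanosterol demethylase, has 5 probe sets. The lead probe set had 500.3, 494.2, 521.1 and 381.4 in FBS cultures 1 to 4, and 853.1, 1239.6, 2162.8 and 1005.0 in RA/Fsk cultures 1 to 4. It had 2041.6, 2287.9 and 1687.6 in HD cultures 1, 2 and 4, and 1771.5, 2675.6 and 2073.5 in LD cultures 1, 3 and 4. HD and LD overlapped, and culture 3 lay inside the range of both. Cyp51 fell by 2.17 ± 0.24 log2 in FBS against LD (adjusted p = 4.46e-06). Its other 4 probe sets fell too, by 1.03 to 2.02 log2, so the size of the difference depends on the probe set by more than its SE.

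Msmo1, the methylsterol oxidase, had 1004.3, 871.5, 920.6 and 806.7 in FBS cultures 1 to 4. It had 634.5, 983.5, 2741.2 and 1047.3 in RA/Fsk cultures 1 to 4. It had 3168.1, 3513.9 and 3227.4 in HD cultures 1, 2 and 4, and 2450.0, 3287.6 and 2636.5 in LD cultures 1, 3 and 4. In both Msmo1 probe sets FBS and RA/Fsk overlapped, which among the lead probe sets happened for Msmo1 alone. In the lead probe set RA/Fsk culture 1 lay below every FBS culture and culture 3 inside the range of LD. In the second, RA/Fsk cultures 1 and 2 (199.1 and 201.5) lay below every FBS culture. Culture 3 (589.9) lay below every LD culture there. Msmo1 fell by 1.62 ± 0.32 log2 in FBS against LD (adjusted p = 0.000893), and its second probe set fell by 1.21 ± 0.27. With the GAPDH 5′ to 3′ ratio of each culture, a measure of RNA quality, as a covariate, the lead probe set gave -1.10 log2 with an adjusted p of 0.0534. It was the only lead probe set of the 8 that did not pass in this comparison under that covariate.

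Dhcr7, which makes cholesterol from its last precursor, had the smallest difference between FBS and LD among the lead probe sets. It had 330.8, 379.9, 254.4 and 307.5 in FBS cultures 1 to 4, and 412.4, 494.1, 566.8 and 457.9 in RA/Fsk cultures 1 to 4. It had 1201.9, 1273.2 and 1101.3 in HD cultures 1, 2 and 4, and 634.4, 827.6 and 873.1 in LD cultures 1, 3 and 4. The 4 groups did not overlap with each other, in the order FBS, RA/Fsk, LD and HD from low to high. Dhcr7 fell by 1.28 ± 0.16 log2 in FBS against LD (adjusted p = 1.09e-05), and its second probe set fell by 1.14 ± 0.15.

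**Figure D2:**
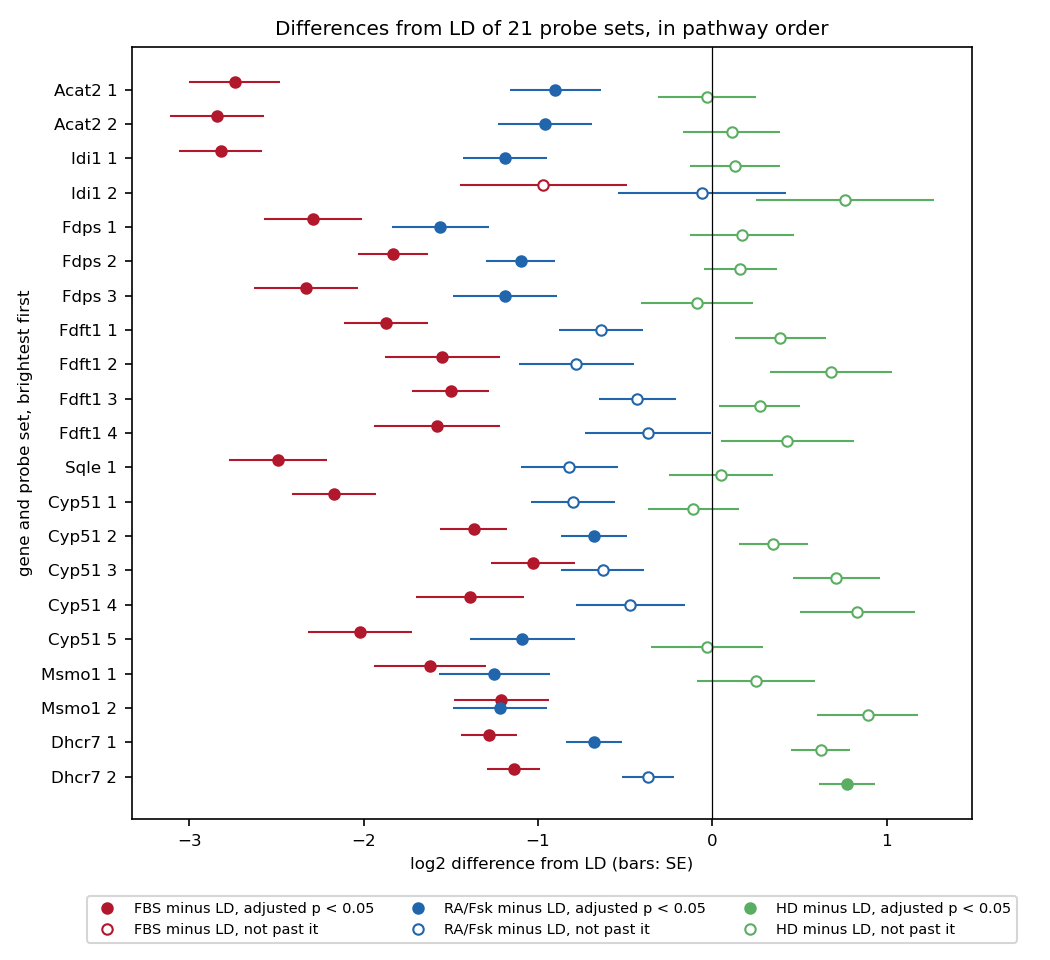
Difference from LD of the 21 probe sets (log2, bars give the SE) for FBS, RA/Fsk and HD, in pathway order with the brightest probe set of a gene first. Filled points passed at an adjusted p under 0.05. In FBS 20 of 21 points are filled and left of 0, in RA/Fsk 11, and in HD 1 point is filled and right of 0.

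RA/Fsk cultures also had lower levels than LD, by less and with a wide spread. Against LD, 11 of 21 probe sets fell and 0 rose, and 5 of 8 lead probe sets fell. Of all probe sets 3.54% fell and 4.71% rose. The lead probe sets that fell were Fdps at -1.56 ± 0.28 log2 (adjusted p = 0.00222), Msmo1 at -1.25 ± 0.32 (0.0195), Idi1 at -1.19 ± 0.24 (0.00491), Acat2 at -0.90 ± 0.26 (0.0441) and Dhcr7 at -0.68 ± 0.16 (0.0114). Sqle at -0.82 ± 0.28 (0.0953), Cyp51 at -0.80 ± 0.24 (0.0560) and Fdft1 at -0.64 ± 0.24 (0.131) did not pass. The Acat2 call was lost in 18 of 28 alternatives, with adjusted p from 8.66e-05 to 0.170. The median difference was -0.80 log2 over the 21 probe sets and -0.05 over all. RA/Fsk and LD did not overlap in 9 of 21, all lower in RA/Fsk, against 8.39% of all probe sets. With culture 3 left out these became 17 of 21 and 10.9%.

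Culture 3 lay apart from the other 3 within that spread. Its lead levels lay between 0.70 log2 below (Idi1) and 0.18 log2 above (Fdft1) the mean of LD, and for 5 of the 8 genes, Acat2, Fdft1, Sqle, Cyp51 and Msmo1, inside the range of the LD cultures. RA/Fsk cultures 1, 2 and 4 lay below the LD mean for every lead probe set, by 0.64 log2 (Dhcr7, culture 2) to 2.12 log2 (Msmo1, culture 1). Without culture 3, 15 of 21 probe sets fell and all 8 lead probe sets passed. Removing the highest culture of these same probe sets lowers the RA/Fsk mean by itself, so these p-values are descriptive. Of all probe sets, 3.82% fell in that fit. The differences were -1.95 ± 0.13 log2 for Fdps (SE, adjusted p = 1.44e-07), -1.67 ± 0.17 for Msmo1 (1.22e-05), -1.36 ± 0.24 for Idi1 (0.00165), -1.23 ± 0.15 for Acat2 (8.66e-05), -1.10 ± 0.23 for Sqle (0.00735), -1.07 ± 0.18 for Cyp51 (0.00140), -0.91 ± 0.18 for Fdft1 (0.00424) and -0.76 ± 0.16 for Dhcr7 (0.00665).

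**Figure D3:**
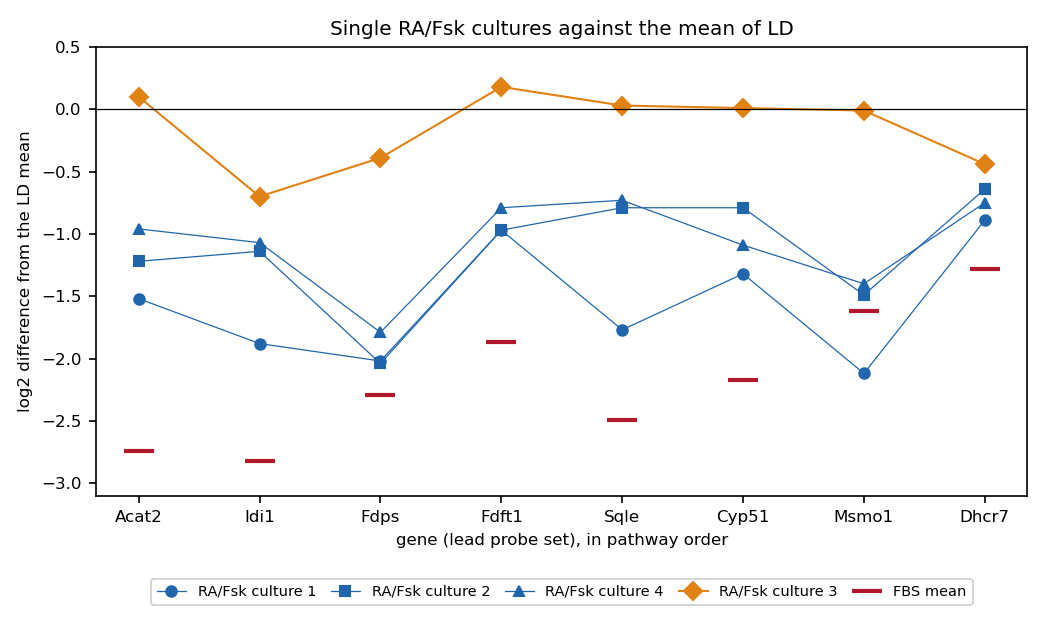
Lead probe sets of the 8 enzymes in each RA/Fsk culture, as the log2 difference from the mean of LD (y axis), in pathway order; the short red lines give the mean of FBS. Lines join the values of 1 culture for reading only. Culture 3 runs near 0 for most genes while cultures 1, 2 and 4 run below it.

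The count for RA/Fsk against LD also depended on other single cultures and on the model. It was 4 under median centring, 5 without the intensity trend of the model and 3 when only these groups were fitted. It was 4 without LD culture 3, 5 without LD culture 4, and 7 without RA/Fsk culture 1 or 2. The share of all probe sets that fell is not given for the alternatives in this paragraph. A loss of calls over all probe sets and a loss among the enzymes alone thus cannot be told apart. With the culture number as a replicate block, 13 of 21 fell, and Sqle at -0.84 log2 (adjusted p = 0.0495) and Cyp51 at -0.81 log2 (0.0132) passed as well. Whether the block fits this comparison was not shown. Deviations of same-numbered RA/Fsk and LD cultures correlated weakly, at 0.327, 0.157 and 0.108. These values were not set against those of differently numbered cultures. The block was also fitted over all groups, including those with no such pairing.

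RA/Fsk levels stood above FBS levels for most of the enzymes. Against FBS, 15 of 21 probe sets were higher in RA/Fsk and 0 were lower, where 8.27% of all probe sets were higher and 10.1% lower. Lead probe sets rose by 1.84 ± 0.24 log2 for Acat2 (adjusted p = 4.10e-05), 1.67 ± 0.26 for Sqle (0.000223), 1.62 ± 0.22 for Idi1 (6.62e-05), 1.38 ± 0.23 for Cyp51 (0.000314), 1.23 ± 0.23 for Fdft1 (0.000841) and 0.60 ± 0.15 for Dhcr7 (0.00728). Fdps at 0.73 ± 0.26 (0.0651) and Msmo1 at 0.36 ± 0.29 (0.475) did not pass. The cultures did not overlap in 13 of 21, all higher in RA/Fsk, against 10.3% of all probe sets. With culture 3 left out these were 13 of 21 and 14.9%. Without RA/Fsk culture 3, 12 of 21 were higher (8.78% of all probe sets), Acat2 stood at 1.5 ± 0.14 log2 (1.78e-06), Fdps at 0.34 ± 0.12 (0.0588) and Msmo1 at -0.05 ± 0.16 (0.876). With the GAPDH ratio as a covariate the count was 8, and the share of all probe sets in that fit is not given.

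Between HD and LD, the progenitors without FBS or RA/Fsk, 1 of 21 probe sets passed. This was the second of Dhcr7, with 831.7, 718.0 and 648.2 in HD cultures 1, 2 and 4 and 410.2, 416.6 and 445.8 in LD cultures 1, 3 and 4. HD lay above LD in every culture, and the difference was 0.77 ± 0.16 log2 (adjusted p = 0.0311). Of the 21 probe sets 0 were lower, and of all probe sets 0.435% were higher and 0.423% lower. The lead probe set of Dhcr7 was higher by 0.62 ± 0.17 log2 with an adjusted p of 0.103. HD lay above LD without overlap in 7 of 21, which are 2 each of Cyp51, Dhcr7 and Fdft1 and 1 of Msmo1, against 7.81% of all probe sets. The median difference was 0.27 log2 over the 21 and -0.08 over all. The SE of a difference had a median of 0.28 log2, so a difference of that size in a single probe set lies within its error, and a missed threshold does not show equal levels. The call for Dhcr7 was lost whichever HD or LD culture was left out.

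Against HD the same order was seen. In FBS 21 of 21 probe sets fell, with a median of -2.07 log2, where 9.7% of all probe sets fell and 11.3% rose. Lead probe sets fell by between 1.87 ± 0.32 log2 (Msmo1, adjusted p = 0.000283) and 2.94 ± 0.24 log2 (Idi1, adjusted p = 2.07e-07). In RA/Fsk 16 of 21 fell against HD and 0 rose, with a median of -1.09 log2, where 5.32% of all probe sets fell and 4.85% rose. Fdps at -1.73 ± 0.28 log2 (adjusted p = 0.000927) and Msmo1 at -1.51 ± 0.32 (0.00528) led, while Sqle at -0.87 ± 0.28 (0.0664) and Cyp51 at -0.69 ± 0.24 (0.0915) did not pass. Acat2 at -0.87 log2 (0.0456) passed, and that call was lost in 19 of 28 alternatives. Without RA/Fsk culture 3, 19 of 21 fell (4.91% of all probe sets), Sqle and Cyp51 among them at -1.15 ± 0.23 (0.00495) and -0.96 ± 0.18 (0.00296). Comparisons that share a group use the same cultures of it, and their values are side by side here without a test of likeness.

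Other enzymes of the pathway were lower in FBS in the same direction. Of 13 listed, 8 had a probe set, and counts in this and the other lists are of lead probe sets. Against LD in FBS 5 fell and 0 rose, with a median of -1.21 log2, beside 12.3% and 13.2% of all probe sets. Those that fell were Mvk (mevalonate kinase, -1.48 ± 0.28 log2, adjusted p = 0.000640), Mvd (which makes isopentenyl diphosphate, -1.75 ± 0.42, 0.00464), Lss (lanosterol synthase, -0.95 ± 0.32, 0.0399), Lbr (a sterol reductase of the nuclear envelope, -1.74 ± 0.22, 1.18e-05) and Hsd17b7 (a sterol ketoreductase, -1.58 ± 0.32, 0.00128). Nsdhl at -0.47 ± 0.25, Ebp at -0.72 ± 0.30 and Acat1, the mitochondrial thiolase, at -0.41 ± 0.19 did not pass. The second probe set of Lss fell (-1.16 ± 0.28, 0.00429), and the third did not pass (-0.71 ± 0.36, 0.186). The 3 probe sets of Acat1 disagreed, the second having fallen in FBS (-0.76 ± 0.16, 0.00145) and in RA/Fsk (-0.55 ± 0.16, 0.0411) against LD. By lead probe sets, in RA/Fsk against LD, 1 of the 8 fell and 0 rose, beside 3.54% and 4.71% of all probe sets. The 1 that fell was Lbr (-0.86 ± 0.22, adjusted p = 0.0199), and the median was -0.70 log2.

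RA/Fsk culture 3 was high for most of these enzymes too. Mvd had 121.2, 128.4, 128.4 and 110.6 in FBS cultures 1 to 4 and 116.3, 90.4, 548.8 and 138.5 in RA/Fsk cultures 1 to 4, against 355.3, 513.8 and 410.8 in LD cultures 1, 3 and 4. Culture 3 lay above every LD culture, and the other 3 RA/Fsk cultures lay in or near the range of FBS. Lss showed the same with 591.3 in culture 3, against 158.1, 181.6 and 225.7 in RA/Fsk cultures 1, 2 and 4. The summed level of the 8 lead probe sets was 2458.4 in RA/Fsk culture 3 and 1253.2 to 1334.8 in the other RA/Fsk cultures, and 2079.3 to 2598.4 in LD. Without culture 3, 6 of the 8 fell in RA/Fsk against LD, Mvk, Mvd, Lss, Lbr, Hsd17b7 and Ebp (the sterol isomerase), with a median of -0.94 log2. In that fit 3.82% of all probe sets fell. The count is a description, because culture 3 was high in most of these same genes.

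Among genes of SREBP control and uptake, 5 of 15 listed were measured, and 2 fell in FBS against LD, beside 12.3% of all probe sets. Insig1, which holds SREBP in the endoplasmic reticulum and is itself an SREBP target, had 261.5, 369.0, 366.4 and 206.5 in FBS cultures 1 to 4 and 292.5, 414.1, 1377.5 and 430.8 in RA/Fsk cultures 1 to 4. It had 1078.5, 1141.9 and 1097.4 in HD cultures 1, 2 and 4 and 751.4, 1327.4 and 1208.3 in LD cultures 1, 3 and 4. RA/Fsk culture 3 was thus the highest of all 14 cultures, and the other RA/Fsk cultures lay below every LD culture. Insig1 fell by 1.85 ± 0.38 log2 in FBS against LD (adjusted p = 0.00133) and stood at -1.03 ± 0.38 (0.111) in RA/Fsk. Scarb1, a lipoprotein receptor, fell by 0.98 ± 0.16 in FBS (0.000223). Srebf1 at 0.25 ± 0.27, Mbtps2, a protease of SREBP, at 0.00 ± 0.30 and Vldlr at 0.60 ± 0.23 did not pass in FBS. Srebf1 was dim, between 8.75 and 24.0 in all cultures, and Mbtps2 read 23.1 to 74.1, so their results limit little. Srebf2, the gene of SREBP2, was listed but is not among the 5 measured. In RA/Fsk 0 of these 5 passed against LD, where 3.54% and 4.71% of all probe sets were lower and higher. Without RA/Fsk culture 3, Insig1 and Scarb1 fell against LD, 2 of the 5, beside 3.82% of all probe sets.

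Genes of fatty acid synthesis were lower in FBS only in part. Of 11 listed, 6 were measured and 3 fell in FBS against LD, Scd at -2.89 ± 0.35 log2 (adjusted p = 9.66e-06), Acly at -1.31 ± 0.26 (0.000963) and Scd2 at -0.94 ± 0.21 (0.00287). Scd and Scd2 are stearoyl-CoA desaturases, and Acly makes cytosolic acetyl-CoA. Fasn at -0.47 ± 0.24 (0.168), Acaca at -0.79 ± 0.41 (0.192) and Me1 at 0.43 ± 0.27 (0.292) did not pass. In this comparison 12.3% of all probe sets fell and 13.2% rose. Fasn, Acly, Scd2 and Me1 have further probe sets that differ from the lead one in passing. Of the 5 probe sets of Me1, the malic enzyme of the cytosol, the third and the fourth rose in FBS against LD (1.27 ± 0.28, adjusted p = 0.00231, and 1.15 ± 0.33, 0.0159), against the direction of Scd, Acly and Scd2. In RA/Fsk against LD 0 of 6 lead probe sets passed, while the second of Fasn (0.90 ± 0.26, 0.0383) and the third of Scd2 (0.95 ± 0.25, 0.0231) rose. In RA/Fsk against FBS 4 of 6 lead probe sets were higher and 0 lower, beside 8.27% and 10.1% of all probe sets. Without RA/Fsk culture 3 the counts against FBS were 3 higher (Fasn, Scd and Scd2) and 1 lower (Me1), where 8.78% of all probe sets were higher. Scd had 103.7, 92.8, 92.7 and 61.8 in FBS cultures 1 to 4 and 254.9, 528.3, 1203.7 and 465.3 in RA/Fsk cultures 1 to 4, against 510.9, 755.7 and 783.7 in LD cultures 1, 3 and 4. Culture 3 was again the highest RA/Fsk culture and lay above LD. Without it, Acly was the 1 of 6 that fell against LD, beside 3.82% of all probe sets.

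**Figure D4:**
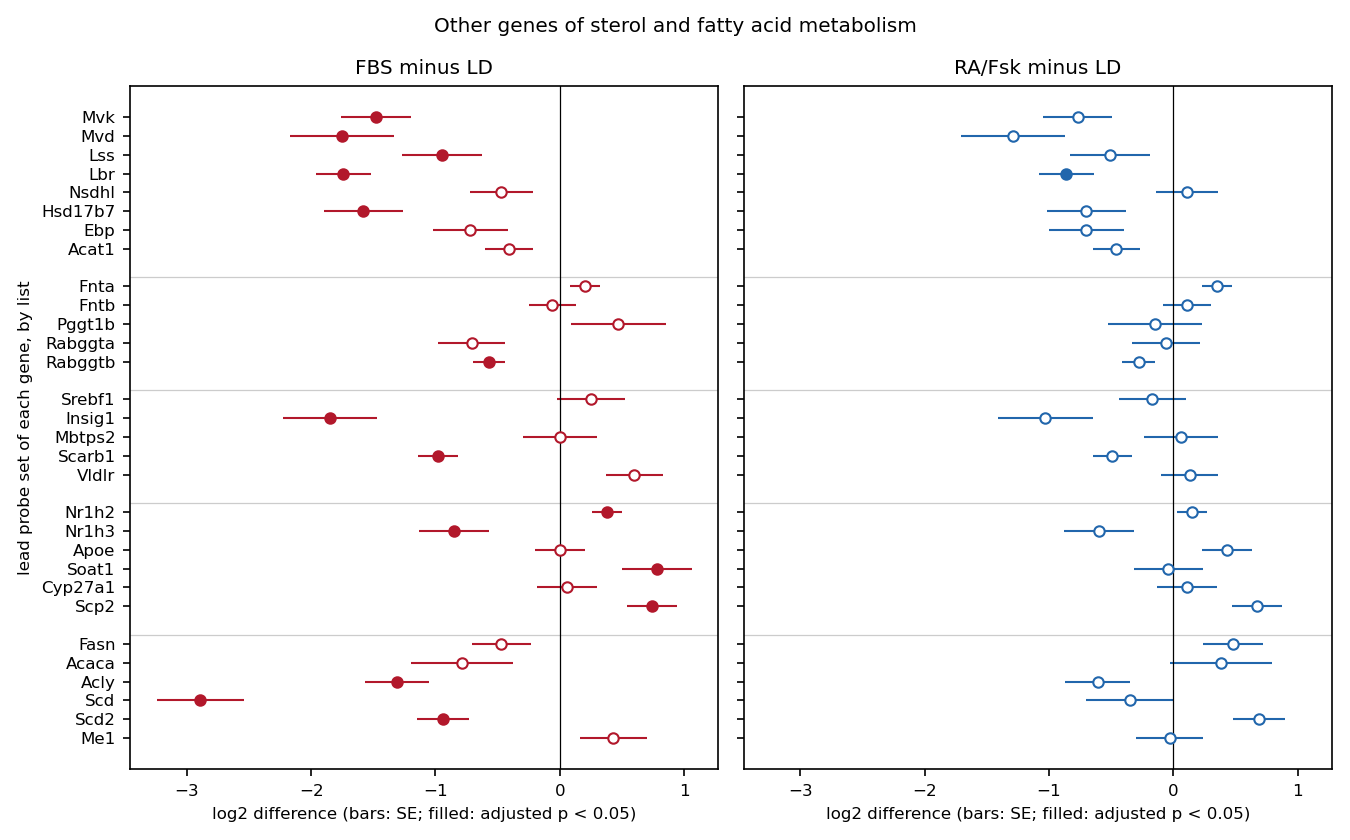
Lead probe sets of other genes of sterol and fatty acid metabolism, as the log2 difference from LD (bars give the SE) in FBS, left, and RA/Fsk, right. Blocks from the top are other enzymes of the pathway, other isoprenoid branches, SREBP control and uptake, sterol export and LXR, and fatty acid synthesis, and filled points passed at an adjusted p under 0.05. In FBS 5 of the 8 pathway enzymes are filled and left of 0, and in RA/Fsk Lbr is the 1 filled point.

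The remaining lists moved little or both ways. Of 11 genes of other isoprenoid branches, 5 were measured, and in FBS against LD Rabggtb, a subunit of the enzyme that prenylates Rab proteins, fell by 0.57 ± 0.13 log2 (adjusted p = 0.00331). Of 12 genes of sterol export and LXR signalling, 6 were measured, and 3 rose and 1 fell in FBS against LD. The shares over all probe sets were 13.2% and 12.3%. Those that rose were Soat1, which esterifies cholesterol (0.78 ± 0.28, 0.0480), Scp2, a sterol carrier (0.74 ± 0.20, 0.0121), and Nr1h2, which encodes LXR beta (0.38 ± 0.12, 0.0235). The second probe sets of Scp2 (0.25 ± 0.34, 0.656) and Nr1h2 (-0.40 ± 0.26, 0.303) did not pass, and that of Nr1h2 pointed the other way. Nr1h3, which encodes LXR alpha, fell by 0.85 ± 0.28 (0.0305). In RA/Fsk against LD, 0 of the 11 genes measured in these lists passed, and without culture 3 Scp2 alone of the 11 did, higher in RA/Fsk.

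Proliferation markers moved in the direction of the enzymes between groups, but not in RA/Fsk culture 3 within its group. In FBS against LD 7 of 8 measured markers fell, and in RA/Fsk 4 of 8 fell, Pcna, Mcm6, Dut and Pold1, and 0 rose in either. Of all probe sets, 12.3% fell in FBS and 3.54% in RA/Fsk. Once RA/Fsk culture 3 was left out, the 4 of 8 that fell in RA/Fsk were Pcna, Mcm6, Dut and Ccnb1, beside 3.82% of all probe sets. The summed level of the 8 markers was 3155.5 to 3669.8 in FBS, 3801.6 to 8904.4 in RA/Fsk, 10539.9 to 12475.7 in HD and 10723.8 to 13280.2 in LD. The part of this difference in the results on the enzymes was not tested. RA/Fsk culture 3, which had the highest enzyme levels of its group, had the lowest sum of its group at 3801.6, against 6096.2 to 8904.4 in RA/Fsk cultures 1, 2 and 4. It also had the lowest sum over 6 oligodendrocyte markers in RA/Fsk, 2262.6 against 3474.3 to 3665.7. That sum was 1315.0 to 1707.6 in FBS and 1737.6 to 2412.4 in LD. Mbp, a myelin protein, rose in FBS (1.46 ± 0.49 log2, adjusted p = 0.0373) and in RA/Fsk (2.45 ± 0.49, 0.00442) against LD. Cnp, another myelin protein, rose in RA/Fsk (0.78 ± 0.15, 0.00389). Pdgfra, a receptor of oligodendrocyte progenitors, fell in FBS (-2.51 ± 0.28, 3.56e-06) and stood at -0.08 ± 0.28 (0.917) in RA/Fsk. Without RA/Fsk culture 3 the 2 of 6 that passed in RA/Fsk against LD were again Mbp and Cnp.

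Astrocyte and neuron markers were set against the labels. In FBS against LD 6 of 9 measured astrocyte markers rose, among them S100b by 2.54 ± 0.18 log2, and the sum was 6715.1 to 9254.5 in FBS and 2517.6 to 3133.2 in LD. The astrocyte sum of RA/Fsk was 8445.1 to 9897.9, with 8745.8 in culture 3. There 3 of the 9 rose against LD with and without culture 3, S100b, Glul and Aldoc. Between RA/Fsk and FBS, 3 of the 9 were lower in RA/Fsk and 1 was higher, beside 10.1% and 8.27% of all probe sets. Slc1a3, a glutamate transporter (-1.76 ± 0.28 log2, adjusted p = 0.000268), Mt3 and Agt were lower, and Aldoc was higher (0.76 ± 0.15, 0.00146). Aqp4 and Gja1 were below 30 in all cultures, and Gfap has no probe set of its own in the annotation used. Of 10 neuron markers measured, 0 rose and Gap43 fell in RA/Fsk against LD, also without culture 3, and the sum was 1684.6 to 2151.6 in RA/Fsk and 1808.9 to 2014.5 in LD. In FBS 3 of the 10 rose, Nefm, Gad1 and Chgb. Beside these counts, 13.2% of all probe sets rose and 12.3% fell in FBS against LD. For RA/Fsk against LD these shares were 4.71% and 3.54%. Microglia and leukocyte markers summed to 159.6 to 386.9 over all cultures, fibroblast and meninges markers to 130.7 to 262.2 and endothelium markers to 46.1 to 135.6. The part of these cell type markers in the enzyme results was not tested. The log2 GAPDH 5′ to 3′ ratio averaged -0.06 in FBS, -0.29 in RA/Fsk, -0.06 in HD and -0.33 in LD, with -0.39 in RA/Fsk culture 3, and its part was not tested beyond the fits with it as a covariate.

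The 8 enzymes followed a common profile across the 14 cultures. Each lead probe set was scaled to its own mean and SD over cultures, and the mean of the 8 is the profile. It was -1.38 to -1.12 in FBS, -0.68, -0.28, 0.66 and -0.23 in RA/Fsk cultures 1 to 4, 0.90 to 1.17 in HD, and 0.60 to 1.04 in LD. The Pearson correlation of a lead probe set with the profile that contains it was 0.940 (Msmo1) to 0.984 (Idi1), and pairs of the 8 correlated at 0.873 to 0.984 (0.865 to 0.991 without RA/Fsk culture 3), as a description over cultures that share 4 groups.

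Correlations with the profile over the 14 cultures were taken for 3629 probe sets of genes outside the set. These carry 1 symbol and have a mean at or above the median of all probe sets. By the best probe set of each gene, the highest were Mrpl23 (0.962), Rpl7a (0.962), Rpl14 (0.958), Mvk (0.955), Insig1 (0.950) and Idh2 (0.949). Mrpl23 encodes a protein of the mitochondrial ribosome, Rpl7a and Rpl14 encode proteins of the cytosolic ribosome, and Idh2 is the mitochondrial NADP-dependent isocitrate dehydrogenase. Rpl7a had 4170.2, 3996.1, 4394.9 and 4354.1 in FBS cultures 1 to 4 and 5887.8, 5742.4, 8547.3 and 6012.1 in RA/Fsk cultures 1 to 4, against 9340.0, 8418.0 and 8565.2 in LD cultures 1, 3 and 4. It thus shared the high value of RA/Fsk culture 3. The lowest correlations were those of Enpp2 (-0.962), Pam (-0.951) and Lmna (-0.950). Enpp2, the secreted enzyme autotaxin, had 747.9, 1165.0, 937.5 and 735.6 in FBS cultures 1 to 4 and 614.8, 584.1, 169.4 and 494.6 in RA/Fsk cultures 1 to 4. It had 117.8, 98.9 and 105.8 in HD cultures 1, 2 and 4 and 110.1, 75.8 and 83.5 in LD cultures 1, 3 and 4. With RA/Fsk culture 3 left out, these 9 correlations were 0.953 to 0.961 and -0.979 to -0.956. The 7 probe sets of Pam disagreed, so its value holds for 1 of them.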

How the data were processed

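The authors deposited 1 table of linear signal intensities for 8799 probe sets on 20 arrays, per the file headers. The way it was made is not given in the sources used here. Trimmed means (2% left out at each end) of 200.3 to 200.5 show a common scale, and array medians run from 41.0 to 57.5. The table holds 6 zeros and 0 negative values, and no detection calls were used. Intensities were transformed as log2(intensity + 4.99), 10% of the median positive intensity of 49.9. The 59 control probe sets were left out. Of the 8740 tested, 7006 carry 1 symbol, 308 several and 1426 none in the platform annotation, and 6985 gene identifiers were found in RefSeq (GRCr8).

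After averaging repeat arrays, 1 limma model (version 3.58.1, R 4.3.3) covered the 14 cultures of the 4 groups (lmFit, eBayes with an intensity trend, 10 residual and 6.13 prior degrees of freedom), with Benjamini-Hochberg adjustment over 8740. The fit was tested on simulated data. Deviations from the group means of same-numbered RA/Fsk and LD cultures correlated at 0.327, 0.157 and 0.108 for cultures 1, 3 and 4. The other groups did not reach 0.1 in every pair. Numbers were taken to pair RA/Fsk and LD on these weak correlations, which are not set against those of differently numbered cultures. The block was fitted over all 14 cultures. Precision is limited by how many arrays there are. The genes, lists and comparisons were chosen with earlier results of these data known. Genes outside the set are the listed ones and the 6 highest and 3 lowest correlations with the profile. Alternatives covered the pseudocount, scaling, low values, replication, trend, samples in the fit, GAPDH ratio, replicate block and each culture left out. RefSeq lists relatives or pseudogenes of Acat2, Idi1, Fdps and Cyp51, whose signal could not be separated.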

Additional observations from a re-analysis of the deposited data

Results flagged for a closer look

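In 5 of 42 groups of 4 cultures (21 probe sets, FBS and RA/Fsk), 1 culture lay far from the other 3. For independent groups, chance alone gives about 1 group in 20. These groups share cultures and correlated probe sets, so the count cannot show an excess over chance. RA/Fsk culture 3 was high for the lead probe set of Fdps, at 3338.4 against 1063.6 to 1265.7 in the other RA/Fsk cultures. The second Fdps probe set, of the same target sequence, read 1784.2 against 857.7 to 942.5, and the lead probe set of Fdft1 read 783.3 against 349.5 to 396.9. FBS culture 4 was low for the lead probe set of Cyp51, at 381.4 against 494.2 to 521.1. RA/Fsk culture 1 was low for the second Cyp51 probe set, at 296.8 against 479.6 to 515.3.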

How the results depend on the processing

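Counts are of the 21 probe sets, and the share of all probe sets that passed is not given in this section. FBS against LD gave 20, and 17 to 21 under the 28 alternatives, FBS against HD gave 21 (19 to 21), and RA/Fsk against HD gave 16 (11 to 19). RA/Fsk against LD gave 11, with 4 under median centring, 5 without the intensity trend, 3 with only the groups compared, and 4 to 15 when each culture was left out. RA/Fsk against FBS gave 15, with 8 under the GAPDH covariate, 12 to 16 when each culture was left out, and 17 with the replicate block. HD against LD gave 1, with 0 under median centring, with array 3r alone, without the trend, with the GAPDH covariate or with the replicate block, 4 with each array as its own sample, 3 with the culture as a random block, and 0 to 2 when each culture was left out. Leaving out every culture numbered 3, chosen after seeing the data, gave 20 for FBS against LD, 12 for RA/Fsk against LD, 10 for RA/Fsk against FBS and 0 for HD against LD. Culture numbers were not shown to pair cultures across groups, and between RA/Fsk and LD the correlations were weak. With the replicate block FBS against LD gave 20 and RA/Fsk against LD gave 13. Among values for single lead probe sets under the alternatives, 1257 kept their side of the threshold and, where called, their direction, 36 passed newly, 51 no longer passed, and no called value changed sign. The cause of these shifts was not tested.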
